A study of Xenopus laevis with 9 samples.

Results

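Extracellular proteases and their inhibitors were followed in *Xenopus laevis* lens and cornea through the 65 probesets, of 15491 tested, whose gene symbol belongs to 1 of 9 kinds: matrix metalloproteinases (14 probesets, 11 genes), tissue inhibitors of metalloproteinases or TIMPs (5 probesets, 2 genes), ADAMs (11, 6), membrane and secreted serine proteases (7, 6), the Kunitz inhibitor Spint2 (2, 1), proprotein convertases (4, 3), serpins (18, 13), the alpha-2-macroglobulin and inter-alpha-trypsin inhibitor family (3, 3) and cystatin C (1, 1). They were picked by a pattern of gene symbols from the 9304 probesets that the array annotation pairs with exactly 1 symbol. They stand for 53 symbols and 46 genes once the suffixes .L and .S, which name the copies on the 2 subgenomes of this allotetraploid frog (homoeologs), are set aside, and 7 genes were measured through both copies. The mean intensity reached 4 in at least 1 group for 36 of the 65 probesets, and the array medians of all probesets lay between 2.99 and 3.29.

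Proteases outside the cell cut matrix, release growth factors from it and shed membrane proteins, so that a wound can close and cells can move. Matrix metalloproteinases are zinc enzymes made as inactive precursors and held in check by TIMPs. Trypsin-like serine proteases are held in check by serpins, which trap the enzyme by a change of shape, and by Kunitz inhibitors, while alpha-2-macroglobulin cages proteases of every class. Proprotein convertases cut precursors on their way through the secretory pathway. In cornea these systems act in the epithelium, the stroma and the tear or surface fluid, and the lens has its own capsule matrix.

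Tadpoles of *X. laevis* at stage 50 can form a new lens from the outer cornea after lens removal, a process named cornea-lens transdifferentiation (CLT). Whole lenses (L), corneas whose lens had been taken out 3 days earlier (R) and corneas sham operated 3 days earlier (S) were pooled, and 3 pools of each were put on 1 Affymetrix array apiece, numbered 1 to 3 in L and R and 1, 3 and 4 in S. By the labels a pool held 5 lenses or 7 to 8 corneas, whereas the methods give 8 to 10 per pool, and the L lenses are said to be those removed to make R. By the labels all tadpoles were wild type and were kept overnight in dilute saline after surgery, then in water. In the sham operation a flap of outer cornea was lifted while the inner cornea and lens stayed in place, whereas lens removal also ruptured the inner cornea, so that R and S differed in that wound as well as in the loss of the lens, and these cannot be told apart. Only some operated eyes regenerate, and the dissected cornea carried some surrounding epidermis. The p-values measure the spread between such pools.

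Across markers, 11 of 11 lens probesets were higher in L than in S, and 16 of 16 epithelial probesets were lower. Summed retina markers ran from 121 to 329 in L and from 16.8 to 17.3 in S. In R their sums were 118, 601 and 27.7, all above S, with the second array, R2, apart. Of the 15 retina probesets, 9 had every R array above every S array, where 12.3% of all probesets did, and 1 was called higher in R. Summed lens markers were 83.6, 14.95 and 35.8 in R and 14.3, 12.7 and 13.4 in S, so that R2 was only just above S. The paper took the low crystallins of R2 to mean that CLT lagged there or took place in fewer corneas. All 11 lens differences between R and S were above 0. Of these probesets 5 had every R array above every S array, against the same 12.3% of all probesets, and none was called. Between R and S, 174 of all probesets passed an adjusted p of 0.05 (limma on log2 intensity, two-sided, Benjamini-Hochberg over 15491), and 2240 passed before adjustment.

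Mmp11 and Mmp14 are the metalloproteinases that the study also followed by real-time PCR, and their primers are shown because they identify the transcripts it measured. The PCR values were not analysed here. The primers are the study's own, 20 bases each, written 5′ to 3′.
Mmp11 forward: aatgagattcctgcggcaga
Mmp11 reverse: gcgccatacataaccagact
Mmp14 forward: ccaagcaatgtgcaagcact
Mmp14 reverse: gagcaactcaggtcttggta

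The first question was which of these genes differed between corneas that had lost the lens and corneas that kept it. The metalloproteinase *mmp11.L* and the protease trap *a2m.S* were higher in R, and no member was lower. These 2 calls are 3.08% of the members, against 1.12% of all probesets (0.484% called higher and 0.639% called lower). At an unadjusted p under 0.05 (limma), 6 members were higher and 2 were lower. Of all 15491 probesets, 2240 passed that threshold in either direction, so the share of members was not above that of all probesets. The median difference of the 65 was 0.08 on the log2 scale, against 0.06 for all probesets, and 43 were above 0. How many of all probesets were above 0 is not given here, so the 43 have no matching share. All 3 R arrays stood above all 3 S arrays for 8 members, which is 12.3%, the same share as among all probesets (12.3%), and all 3 stood below for 3 members (4.62%, against 9.81%).

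*mmp11.L* encodes stromelysin-3, a metalloproteinase of stromal cells that is cut to its active form inside the cell and is known in *Xenopus* as a gene switched on by thyroid hormone at metamorphosis. In array order, its intensity was 3.98, 3.29 and 3.73 in R, 1.60, 1.55 and 1.42 in S, and 1.36, 1.50 and 1.13 in L. Every R array was therefore above every lens and sham array, while lens and sham overlapped. The rise in R over S was 1.26 on the log2 scale (SE 0.17, 95% interval 0.89 to 1.64, a 2.40-fold change; adjusted p = 0.0089 from limma). The values are low for the array. Those in R were somewhat above the array medians (2.99 to 3.29). Those in S and L were below the medians and nearer the 5th percentiles of their arrays (0.98 to 1.05). Without S4 the adjusted p was 0.0605, over alternatives that ran from 0.00172 to 0.218.

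*mmp14.L* encodes the membrane-anchored metalloproteinase MT1-MMP, a collagenase of the cell surface that also activates the gelatinase Mmp2. It read 231, 244 and 203 in R, 63.1, 129 and 101 in S, and 38.8, 40.3 and 38.7 in the lens. The R arrays were the highest of the 9 and did not overlap with S, and the lens arrays were the lowest. The R minus S difference was 1.26 on the log2 scale (SE 0.25, 95% interval 0.71 to 1.82), the same size as for *mmp11.L*, but with a wider spread it missed the threshold at an adjusted p of 0.0510 (limma). It passed under 8 of 21 alternatives, whose adjusted p ran from 0.0194 to 0.315. Its lens level was below that of S by 2.39-fold (adjusted p = 0.0021; 0.0692 under cyclic loess, and 0.000306 to 0.0692 over all alternatives) and below that of R by 2.52 on the log2 scale (adjusted p = 2.8e-05).

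*a2m.S* had the largest difference of the 65. It read 14.5, 36.8 and 30.2 in R, 3.45, 6.85 and 2.87 in S, and 1.85, 1.83 and 1.78 in the lens. R lay above S without overlap, and R1 was the lowest of the R arrays. It rose by 2.63 on the log2 scale (SE 0.39, 95% interval 1.75 to 3.52, 6.20-fold; adjusted p = 0.0163, limma). Both calls held without R2, the array with the most retina signal, but the retina sums of R1 (118) and R3 (27.7) were above S too. Leaving out R2 therefore did not remove retina signal from R, and the part of retina in these values was not tested. For *a2m.S*, leaving out S1 gave an adjusted p of 0.0774 and leaving out S4 gave 0.0785, over alternatives from 0.0051 to 0.146. In most vertebrates alpha-2-macroglobulin is a plasma protein of the liver and is also made by macrophages and fibroblasts. Summed plasma protein markers (8 genes, 17 probesets) were 91.4, 133 and 131 in R and 99.0, 125 and 117 in S, and summed leukocyte markers (8 genes, 12 probesets) were 179, 221 and 297 in R and 280, 282 and 263 in S. No probeset of either list was called between R and S. Of the 17 plasma differences 13 were above 0, and 4 probesets had every R array above every S array, where 12.3% of all probesets did. The fibrinogen gene *fgb.L* read 4.47, 5.04 and 7.03 in R and 1.76, 2.54 and 2.15 in S (1.35, adjusted p = 0.101). For *ambp.L*, on the same list, 1 probeset read 4.29, 2.52 and 28.9 in R and 1.40, 1.11 and 1.21 in S. Its difference was 2.46 (adjusted p = 0.170, limma), and its other probesets ran from -0.35 to 0.33. Summed red blood cell markers (4 probesets, none called) were 531, 410 and 321 in R and 778, 574 and 695 in S. The part of plasma proteins, blood or leukocytes in the *a2m.S* value was not tested. The related *a2ml1.L* read 1.45, 1.58 and 2.55 in R and 1.90, 1.27 and 1.50 in S, and *itih2.S*, a carrier of hyaluronan, did not exceed 2.59 on any array.

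Only *mmp11.L*, *tmprss2.2.L*, *mmp14.L* and *a2m.S* had every R array above the 6 others, which is 6.15% of members against 4.27% of all probesets. *tmprss2.2.L*, of a family of membrane-spanning trypsin-like proteases, read 3.22, 1.95 and 8.03 in R against 1.94, 1.52 and 1.75 in S. R2 lay just above S1 and R3 far above it, with a difference of 1.10 (SE 0.44; adjusted p = 0.298, limma). Its direct neighbour on the chromosome, *tmprss2.3.L*, read 2.51, 2.03 and 4.28 in R and 4.70, 3.60 and 4.30 in S (difference -0.58, adjusted p = 0.399).

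**Figure D1:**
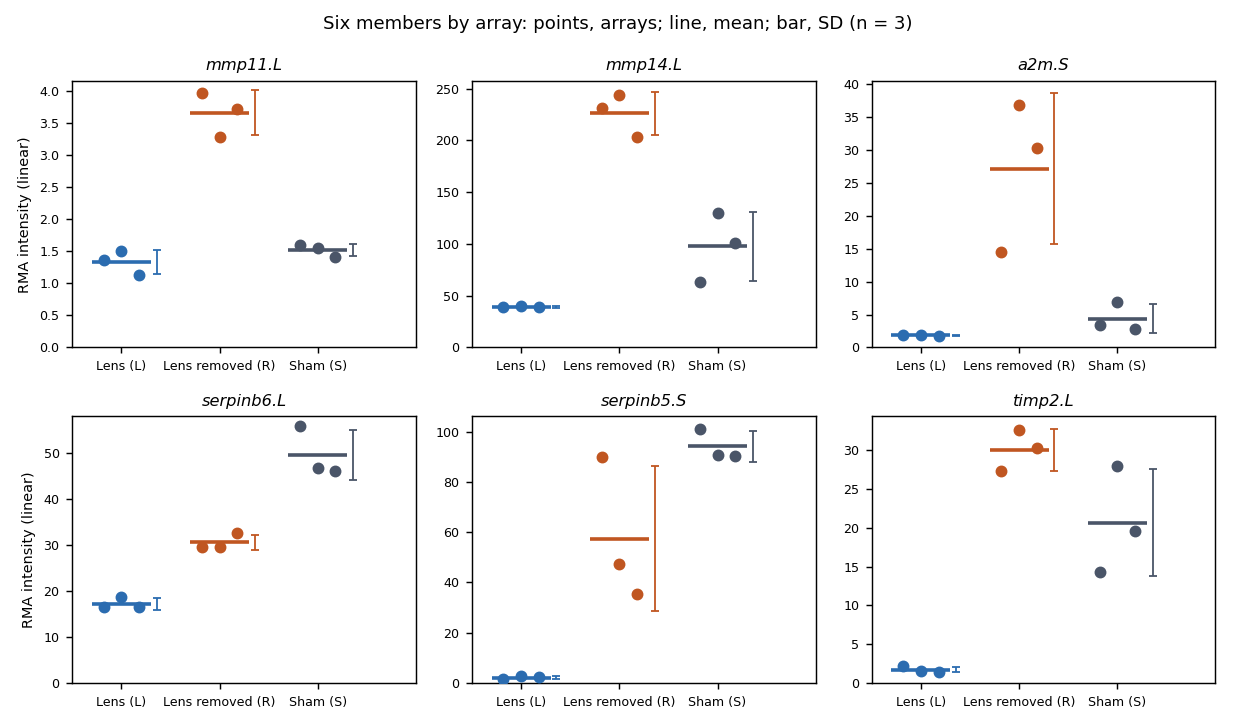
Linear RMA intensity of 6 members in each array of lens (L), cornea after lens removal (R) and sham operated cornea (S), with the group mean as a line and its SD as a bar (n = 3). The R points of *mmp11.L*, *mmp14.L* and *a2m.S* lie above all S and L points, and those of *serpinb6.L* lie between L and S.

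The serpins lay on both sides of 0. *serpinb6.L*, an inhibitor that stays inside the cell and blocks trypsin-like proteases and cathepsin G in mammals, read 29.5, 29.5 and 32.4 in R, 55.8, 46.6 and 46.0 in S, and 16.4, 18.6 and 16.5 in the lens. The 3 groups did not overlap, with R between lens and sham. The R minus S difference was -0.69 (SE 0.15, 95% interval -1.04 to -0.35), and its adjusted p of 0.0789 (limma) missed the threshold. It passed with an offset of 1, an offset of 8 and array weights, over alternatives from 0.0124 to 0.372. The array weights rested mostly on S4, at 10.5 against 0.331 to 1.02 for the other arrays. *serpinb5.S*, which encodes maspin, a serpin of epithelia that inhibits no protease, read 89.9, 47.1 and 35.2 in R and 101, 90.8 and 90.3 in S. R1 lay just below the lowest S array and R2 and R3 far below it, and the difference was -0.82 (SE 0.34, adjusted p = 0.309). *serpinb1.L*, the leukocyte elastase inhibitor, is the next gene to *serpinb6.L* on the chromosome and read 36.5, 39.3 and 37.6 in R and 48.8, 42.7 and 43.6 in S, without overlap (-0.25, adjusted p = 0.466). These 3 of the 18 serpin probesets were the members with every R array below every S array. Summed epithelial markers (9 genes, 16 probesets, none called) were 2133, 2200 and 2265 in R and 2306, 2743 and 2406 in S. Of the 16 epithelial differences 4 were above 0, with a median of -0.31. Every R array was below every S array for *dsp.L*, *dsp.S*, *cdh1.S* and some of the probesets of *cldn1.S*, *cldn7.L* and *krt7.L*. Of all probesets 9.81% had that order. None of the 16 had every R array above every S array. The part of epithelial content in the serpin differences was not tested. Fewer cells of a type and less RNA per cell cannot be told apart in such pools.

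The other direction held *serpinf1.L*, which encodes PEDF, a secreted serpin of connective tissue and pigment epithelium that restrains blood vessel growth. It read 29.4, 17.6 and 37.2 in R and 8.42, 22.8 and 15.9 in S, with overlap (0.89, SE 0.38, adjusted p = 0.323, limma). *serpine2.L*, protease nexin-1, an inhibitor of thrombin and plasminogen activators, read 14.4, 16.5 and 6.95 in R and 3.63, 10.6 and 7.25 in S on 1 of 2 probesets (0.85, adjusted p = 0.395), and the other had a difference of 0.17 (adjusted p = 0.88). A target of it, tissue plasminogen activator (*plat.L*), read 13.8, 18 and 16.5 in R and 5.07, 17.7 and 10.3 in S (0.71, adjusted p = 0.433). In all of these S1 was the lowest sham array and S3 the highest.

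Of the metalloproteinase inhibitors, *timp2.L*, which both inhibits Mmp14 and helps it to activate Mmp2, read 27.3, 32.7 and 30.3 in R and 14.3, 28.0 and 19.6 in S. Only S3 reached the R range, and the difference of 0.59 (SE 0.26) had an adjusted p of 0.337. Of the 3 probesets for *timp3.L*, a TIMP that binds to matrix, the one with the smallest p read 3.05, 3.07 and 2.89 in R and 2.05, 2.26 and 2.76 in S (0.36, adjusted p = 0.401). Cystatin C (*cst3.L*), the secreted inhibitor of cathepsins, read 69.2, 66.8 and 46.8 in R and 122, 66.2 and 88.6 in S (-0.57, adjusted p = 0.349). All 5 TIMP differences were above 0, with a median of 0.36, and none was called. The gelatinase *mmp2.S* stayed low, at 2.33, 3.89 and 2.99 in R and 1.60, 3.02 and 2.19 in S.

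**Figure D2:**
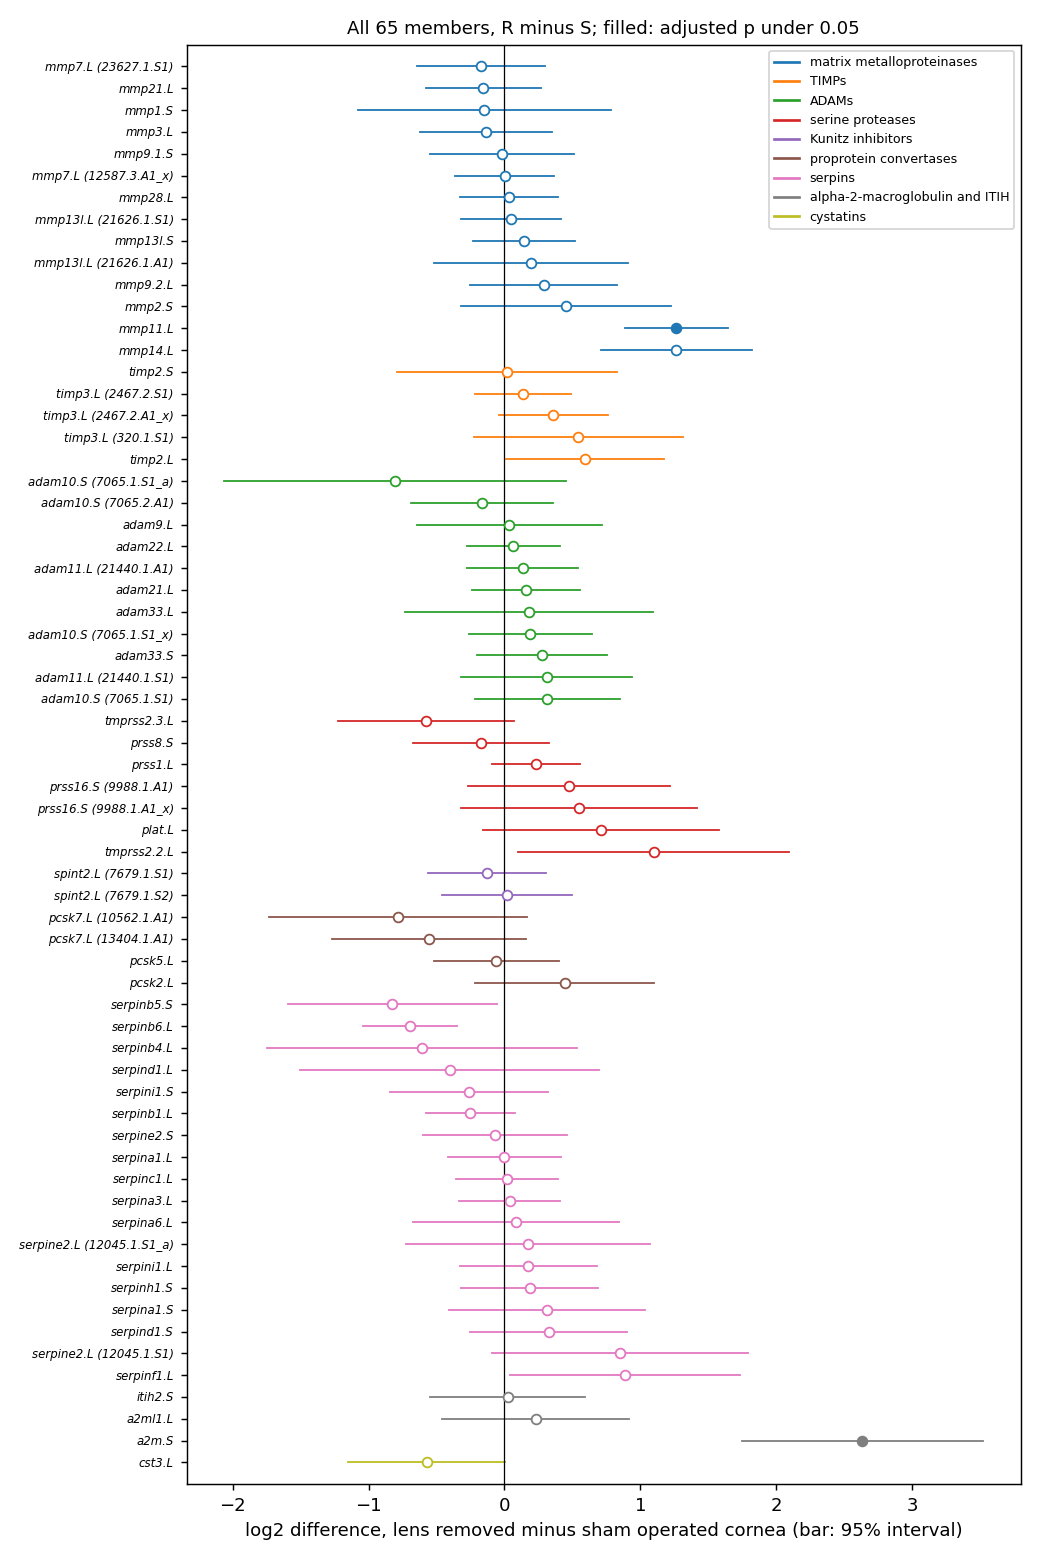
Log2 difference between cornea after lens removal and sham operated cornea for all 65 members, by kind, with 95% intervals from limma; filled points passed an adjusted p of 0.05. The filled points are *mmp11.L* at 1.26 and *a2m.S* at 2.63, and *mmp14.L* at 1.26 is open.

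The spread of the sham arrays touched many of these values. Of the 27 members with an S mean of 4 or more, S3 was the highest sham array for 18 and S1 the lowest for 16, and among all 6850 such probesets S3 was the highest for 58.2% and S1 the lowest for 39.6%. Summed stroma and fibroblast markers (10 genes, 18 probesets, none called) were 4753 in S1, 7530 in S3 and 6132 in S4, the same order as for *mmp14.L*, *timp2.L*, *plat.L* and *serpinf1.L*. In R the stroma sum was 5533, 7086 and 6834, within the S range. Of the 18 stroma differences 14 were above 0, and 1 probeset had every R array above every S array, where 12.3% of all probesets did. It was *tgfbi.L*, at 117, 159 and 118 in R and 33.7, 79.7 and 61.6 in S (1.24, adjusted p = 0.101, limma). In the other direction *lum.L* read 75.2, 122 and 77.3 in R and 109, 144 and 146 in S, with overlap (-0.57, adjusted p = 0.292). The difference of *mmp14.L* without S1 was 0.98 on the log2 scale and was not called. The part of stroma content in these differences, that of *mmp14.L* included, was not tested.

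**Figure D3:**
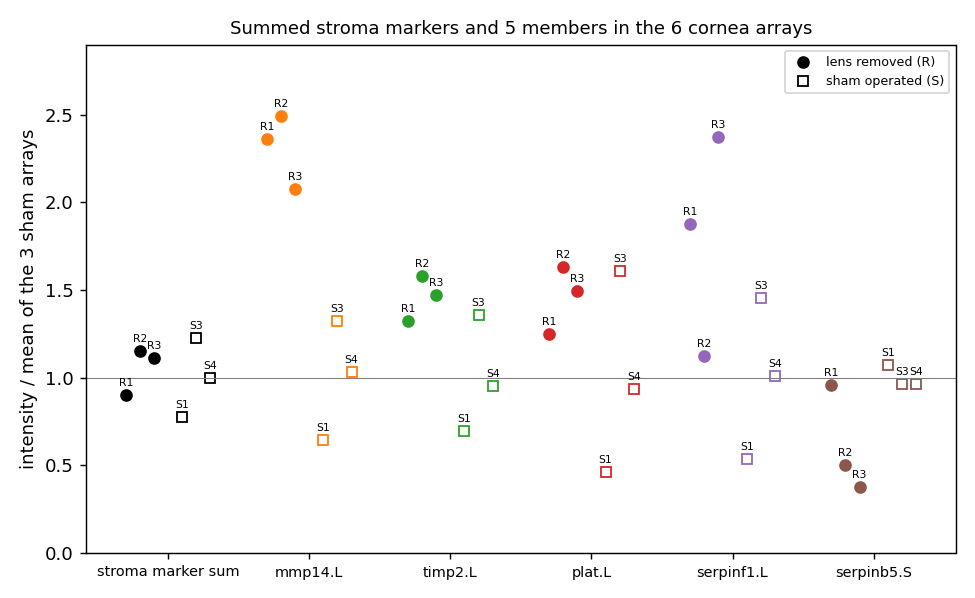
Summed intensity of 18 stroma marker probesets and intensity of 5 members in the 6 cornea arrays, each divided by the mean of its 3 sham arrays; filled circles are R and open squares are S. In *mmp14.L*, *timp2.L*, *plat.L* and *serpinf1.L*, as in the stroma sum, S1 is the lowest and S3 the highest sham array, and all 3 R points lie above S3 only in *mmp14.L*.

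Far more members separated the whole lens from sham cornea. In L, 20 members were higher and 21 lower than in S, 63.1% of the 65, against 53.4% of all probesets (22.9% higher and 30.5% lower). The median was 0.33 for members and 0.02 for all probesets, but it rested on many dim probesets. Over the 30 members with a 9-array mean of 4 or more, the median was -1.18, and that of all probesets under the same filter was -0.80. Of the 30, 6 were called higher and 17 lower, where 5280 of all probesets under that filter were called in either direction. How many probesets the filter kept is not given here, so these 6 and 17 have no matching share. Many of the differences that follow are between a clear signal in cornea and values near the floor in lens.

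Of the 14 metalloproteinase probesets 4 were called higher and 4 lower in lens (28.6% each, near the 22.9% and 30.5% of all probesets). The higher ones were dim (*mmp13l.L* at 4.15, 1.90 and 4.24 in L, the other 3 at 3.30 or less on every array), and the lower ones were *mmp14.L*, at 38.7 to 40.3 in lens, and 3 that were near the floor there. *mmp9.1.S*, a gelatinase B gene, read 1.44, 1.77 and 1.31 in L and 78.4, 110 and 79.6 in S, and it was lower in lens by 59.0-fold (log2 -5.88, SE 0.24, adjusted p = 1.0e-07, limma). In R it read 66.3, 92.2 and 109, with R1 below all S arrays and R2 and R3 among them. The matrilysin gene *mmp7.L*, an epithelial metalloproteinase, read 1.23, 0.812 and 1.22 in L and 17.5, 19.4 and 16.6 in S on 1 of its 2 probesets (log2 -4.06, adjusted p = 4.2e-07). *mmp28.L* (epilysin, of skin keratinocytes) read 0.850, 0.700 and 0.653 in L, below the 5th percentile of those arrays, against 20.5, 18.9 and 17.4 in S (adjusted p = 5.0e-08), and a fold over such a floor has no exact size. It was 19.6, 18.7 and 19.8 in R. In contrast to *mmp11.L* and *mmp14.L*, these genes had R minus S differences of -0.02, -0.17 and 0.03, with 95% intervals that lay between -0.64 and 0.51 (adjusted p of 0.985, 0.748 and 0.948).

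The protease prostasin and its inhibitor were both lower in lens. *spint2.L* encodes HAI-2, a membrane-bound Kunitz inhibitor of prostasin, matriptase and the hepatocyte growth factor activator. It read 2.66, 3.23 and 2.39 in L, 108, 137 and 155 in R, and 133, 145 and 157 in S on 1 of 2 probesets, and the other had 1.10, 0.933 and 1.56 in L and 35.8, 30.0 and 37.1 in S. The log2 differences between lens and S were -5.72 and -4.87, and both were called (adjusted p = 5.0e-08 and 1.6e-07, limma). *prss8.S*, prostasin itself, which activates sodium channels in tight epithelia, read 1.82, 1.24 and 2.07 in L, 22.5, 18.3 and 16.6 in R, and 24.2, 20.5 and 19.8 in S (log2 -3.68, adjusted p = 1.1e-06). Lens and cornea did not overlap in any of these.

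*timp2.L* was lower in lens too, at 2.13, 1.59 and 1.44 (log2 -3.55 against S, SE 0.26, adjusted p = 3.6e-06), whereas *timp3.L* was higher. The probeset of the 3 with the largest difference read 23.3, 14.7 and 13.6 in L, 2.94, 5.58 and 2.50 in R, and 1.97, 3.11 and 2.16 in S, a 7.06-fold difference between L and S (adjusted p = 0.000102). R2 was the highest cornea array, and R2 also held the highest retina signal; the part of retina in this value was not tested. Of the 5 TIMP probesets 2 were called higher and 1 lower in lens (40% and 20%, against 22.9% and 30.5% of all probesets).

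Lens-high members came from several kinds. Retina markers were higher in L as well, with 7 of 15 probesets called over S, against 22.9% of all probesets. Their sums were 121 to 329 in L and 16.8 to 17.3 in S. The part of retina in the lens-high values of these and other members was not tested. *prss16.S*, a carboxypeptidase-like serine protease known from the thymus, read 18.5, 17.1 and 17.7 in L and 3.40, 2.39 and 2.43 in S (log2 2.71, SE 0.33, adjusted p = 0.000106, limma), and in R it read 2.56, 3.10 and 6.68. Its second probeset gave 2.70. *adam11.L*, an ADAM of the nervous system that lacks protease activity, read 7.63, 7.15 and 6.82 in L and 1.32, 1.18 and 1.43 in S (2.46, adjusted p = 3.8e-06). The related *adam22.L*, also without protease activity, read 2.74, 2.86 and 2.44 in L and 1.12, 1.18 and 1.28 in S (1.17, adjusted p = 0.00016). The ADAM members had 3 calls higher in lens, with *adam21.L* as the other, and none lower. The 3 are 27.3% of the ADAM probesets, near the 22.9% of all probesets called higher, while 30.5% of all were called lower.

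Serpins divided between lens and cornea, with 6 called higher and 8 lower in L among 18. These are 33.3% and 44.4%, against 22.9% and 30.5% of all probesets. *serpinb1.L* read 128, 116 and 114 in L, 36.5 to 39.3 in R and 42.7 to 48.8 in S (log2 1.41 against S, SE 0.15, adjusted p = 3.7e-05, limma). Its neighbour *serpinb6.L* went the other way, with a fall in lens by 2.88-fold (adjusted p = 3.3e-05). *serpini1.L*, neuroserpin, which inhibits tissue plasminogen activator in the brain, read 5.42, 4.03 and 4.80 in L and 1.71, 1.87 and 2.10 in S (1.32, adjusted p = 0.000857). Tissue plasminogen activator was lower in lens, at 1.51, 1.73 and 1.32 (-2.69, adjusted p = 0.00031). *serpinb5.S* read 1.45, 2.53 and 2.26 in lens (-5.54, adjusted p = 1.2e-06) and *serpinf1.L* 1.18, 1.38 and 1.20 (-3.54, adjusted p = 4.5e-05). *serpinh1.S*, the collagen chaperone Hsp47, read 5.90, 7.09 and 6.30 in L and 11.3, 19.8 and 15.8 in S (-1.25, adjusted p = 0.0012). The secreted *serpina1* copies, alpha-1-antitrypsin, stayed at 5.81 or less everywhere, and antithrombin (*serpinc1.L*) at 1.35 or less.

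*a2ml1.L*, an alpha-2-macroglobulin relative, read 3.99, 4.34 and 7.38 in L (log2 1.71 over S, adjusted p = 0.00115, limma), whereas *a2m.S* was lower in lens by 1.16 on that scale (adjusted p = 0.0318), a call that held in 13 of 21 alternatives. Of the proprotein convertases, *pcsk5.L* read 9.42, 11.7 and 10.6 in L, 19.3, 23.1 and 24.9 in R, and 18.2, 28.2 and 24.5 in S, lower in lens by 2.21-fold (adjusted p = 0.00119). Under quantile normalisation that difference was -0.17 and not called (adjusted p = 0.496, within a range of 0.000177 to 0.629). *cst3.L* read 64.6, 76.6 and 84.4 in L, overlapped with both cornea groups and was called in neither comparison of the lens.

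Of the 14 genes with more than 1 member probeset, 3 had calls in both directions between L and S. For *mmp7.L* the other probeset, of a type whose probes can bind related transcripts, read 1.40, 1.17 and 1.13 in L and 0.961, 0.834 and 0.931 in S (adjusted p = 0.0448), all near the floor. For *pcsk7.L*, a convertase of nearly all cells, 1 probeset read 8.98, 9.20 and 6.74 in L and 2.69, 2.18 and 1.84 in S (1.89, adjusted p = 0.000813, limma) and the other 9.39, 12.1 and 9.04 in L and 14.3, 40.1 and 21.6 in S (-1.19, adjusted p = 0.0381). For protease nexin-1 the homoeologs differed, since *serpine2.L* read 14.6, 13.6 and 15.8 in L (1.16 over S, adjusted p = 0.0411; 0.86 and 0.0969 on its other probeset) and *serpine2.S* read 1.03, 1.14 and 0.903 in L against 2.02, 3.08 and 2.65 in S (adjusted p = 0.0012). The second *pcsk7.L* probeset passed in 11 of 21 alternatives, the *serpine2.L* probeset in 11 of 20 and this *mmp7.L* probeset in 5 of 19. Whether probesets of 1 gene detect different transcripts was not tested.

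**Figure D4:**
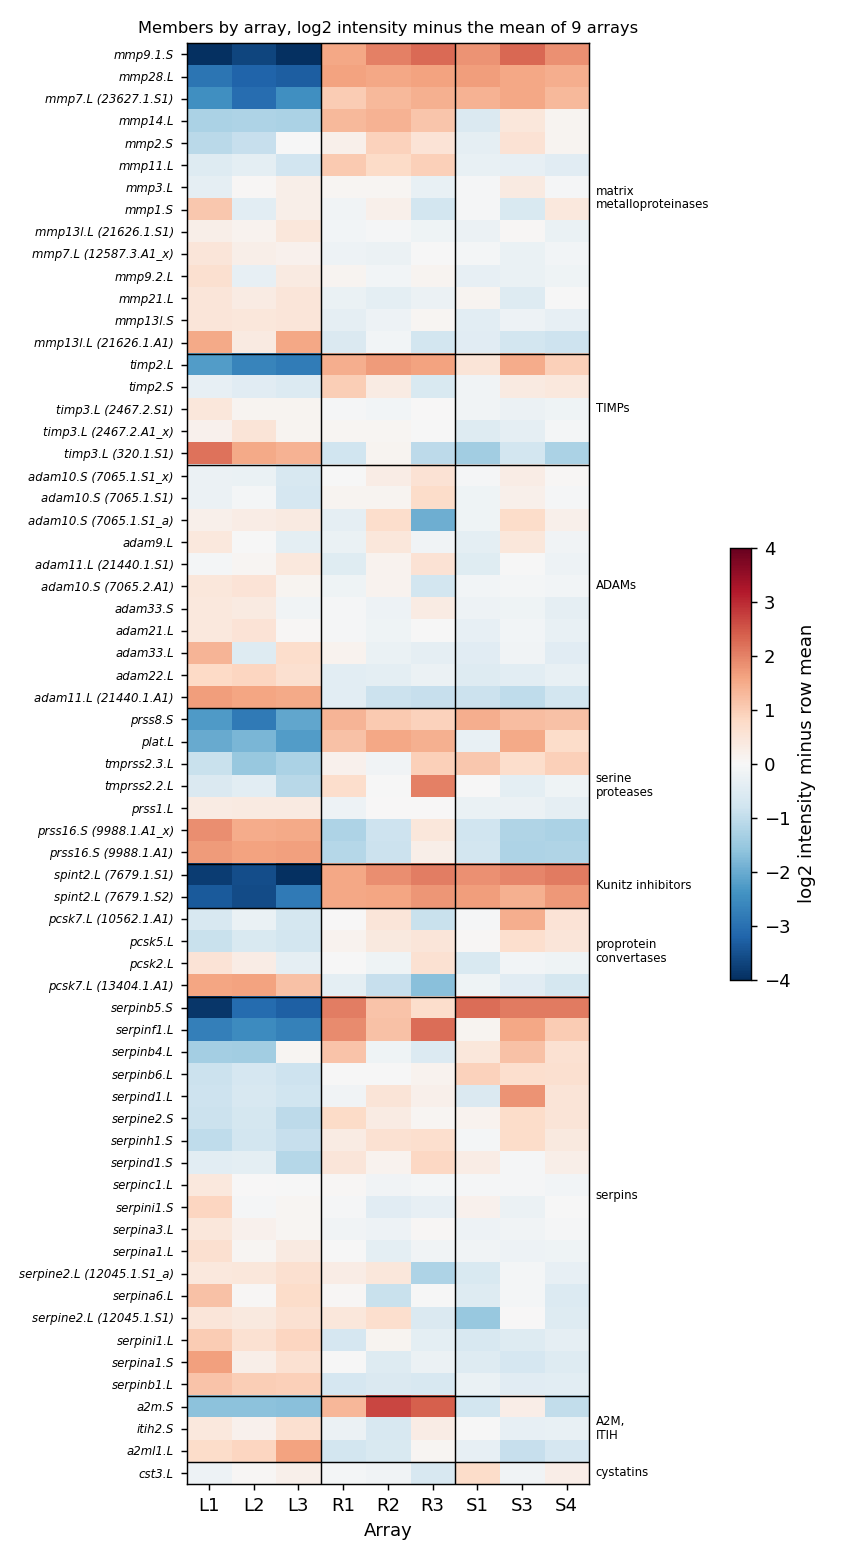
Log2 intensity of each member minus its mean over the 9 arrays (color, from -4 to 4, with values past the ends drawn in the end color), with the arrays of L, R and S from left to right and rows ordered within each kind by the L minus S difference. The lens columns stand apart, with *mmp9.1.S* (-5.88 against S) and *spint2.L* (-5.72) at the blue end and *timp3.L* (2.82) at the red end, while R and S columns look alike in most rows.

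Lens was also compared with the cornea that had lost it. Here 18 members were higher and 23 lower in L than in R, again 41 in all, against 48.8% of all probesets (18.6% higher and 30.2% lower), with a member median of 0.20 and -0.07 for all. Quantile normalisation turned that split to 23 higher and 19 lower. This comparison shares the L arrays with the one above. Of the members that rose in R, *a2m.S* was lower in lens than in R by 3.80 on the log2 scale (adjusted p = 4.1e-05, limma) and *mmp11.L* by 1.47 (adjusted p = 7.7e-05). *adam10.S*, the sheddase that cuts Notch and cadherins, had 4 probesets, of which 3 were called between L and R in opposite directions. A pair of them read 21.3, 24.0 and 15.9 and then 20.3, 19.7 and 15.5 in L, and 27.1, 26.9 and 41.7 and then 23.8, 29.1 and 35.5 in R (differences -0.64 and -0.67, adjusted p = 0.0494 and 0.0216), with the highest value in R3. The third read 6.14, 6.51 and 4.80 in L and 3.95, 4.90 and 2.68 in R (0.63, adjusted p = 0.0493). Under quantile normalisation and cyclic loess the pair turned to the other sign.

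Genes of the same system outside the 9 kinds were read from 4 further lists. Of 13 further membrane and secreted proteases (23 probesets), none was called between R and S, and 3 probesets were higher and 10 lower in lens than in S. Of all probesets, 1.12% were called between R and S, and 22.9% were higher and 30.5% lower in lens. Matriptase (*st14.L*), which prostasin and HAI-2 act on, read 1.11, 1.14 and 0.785 in L, 8.54, 17.2 and 11.3 in R, and 20.6, 23.4 and 16.5 in S, with an adjusted p of 1.7e-06 for lens and 0.262 for R against S. The convertase furin (*furin.S*) read 2.17, 2.60 and 2.20 in L, 21.8, 25.4 and 16.8 in R, and 25.1, 26.3 and 26.1 in S (L minus S -3.48, adjusted p = 4.9e-07). The *furin.L* probesets differed. L minus S was -4.37 and -3.78 on a bright pair (adjusted p = 3.3e-07 and 1.5e-06, limma). It was 0.61 and -0.12 on a dim pair (adjusted p = 0.0873 and 0.605). The second of the bright pair did not overlap between R and S (-0.61, adjusted p = 0.284). The protease-activated receptor Par2 (*f2rl1.S*), cut by matriptase, read 1.03, 1.34 and 0.872 in L, 24.8, 20.9 and 22.3 in R, and 31.1, 39.8 and 31.2 in S (L minus S -4.99, adjusted p = 1.1e-07). It did not overlap between R and S (-0.58, adjusted p = 0.235).

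Cathepsins and legumain are lysosomal proteases, many of which cystatins inhibit. All 7 probesets of 6 genes were called lower in lens (median -2.28), against 30.5% of all probesets. None was called between R and S, where the share of all probesets was 1.12%. Cathepsin S (*ctss.S*) read 0.984, 1.39 and 1.20 in L, 42.5, 43.4 and 38.9 in R, and 49.9, 50.5 and 44.5 in S. Of 6 probesets for 2 further inhibitor genes, the leukocyte cystatin *cst7.L* was called lower in R, at 1.39, 1.74 and 1.13 against 3.69, 3.87 and 2.48 in S (-1.23, SE 0.22, adjusted p = 0.0384, limma). These values are low for the array. Those in R were below the medians of the R arrays (3.06 to 3.29) and nearer their 5th percentiles (0.99 to 1.06). Its lens mean was below the 5th percentile, and the alternatives were not run for it. Receptors and activators (15 genes, 26 probesets) had no call between R and S. In lens 3 were higher and 14 lower, against 22.9% and 30.5% of all probesets. The endocytic receptor *lrp1.S*, which clears complexes of proteases with serpins and with alpha-2-macroglobulin, read 39.2, 37.5 and 36.3 in R, 14.3, 37.9 and 24.4 in S, and 8.87, 9.10 and 6.98 in L on 1 probeset, with overlap between R and S and an adjusted p of 0.371. On a second probeset it read 36.6, 63.8 and 43.8 in R, 15.9, 39.3 and 26.8 in S, and 20.6, 15.5 and 12.3 in L. There the lens overlapped with S and was not called (-0.70, adjusted p = 0.123, limma). R minus S was 0.87 on that probeset, with overlap (adjusted p = 0.300).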

How the data were processed

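RNA from 9 pools was amplified and hybridised to Affymetrix *Xenopus* arrays, and the authors deposited linear intensity values, made with RMA in GenePattern, for 15611 probesets. The options and version of RMA: not given in the sources used here. Without 120 control probesets, 15491 remained and were log2 transformed, with neither offset nor filter. Groups were compared in 1 limma 3.58.1 fit of 9 arrays under R 4.3.3 (two-sided, 6 residual degrees of freedom). The p-values were adjusted by the Benjamini-Hochberg method across the 15491, and 0.05 was the threshold. In simulated data limma called, for R against S, 43 of 100 probesets changed 2-fold and 80 of 100 changed 4-fold. The simulation gave every array, lens included, the cornea mean and spread of each probeset with independent normal noise. Shifts shared across an array and the spread of the lens were therefore left out. Symbols came from the array annotation and matched RefSeq for 65 of 65 members. Gene neighbours came from RefSeq on Xenopus_laevis_v10.1. Figures were drawn with python 3.11.15 and matplotlib 3.10.9, and array weights used statmod 1.5.0.

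The members, gene lists and rule for named genes were chosen with earlier results of these data known. Named are members called between R and S, the 12 with the smallest p there, *mmp11* and *mmp14*, the 8 with the largest called differences in each direction between L and S (no overlap, higher mean at least 4), the probeset with the highest mean of each kind, and genes with opposite calls. Others (*plat.L*, *mmp2.S*, *mmp13l.L*, *adam21.L*, *adam22.L*, *itih2.S*, *serpina1*, *serpinc1.L*, *serpinh1.S* and genes outside the 9 kinds, markers included) were named after their values were seen. A difference between probesets is not a difference in level between genes, and the number of arrays limits the precision. Alternatives were offsets of 1 and 8, 3 normalisations, a filter on the mean, fits of 2 groups, array weights, robust eBayes with a trend, the replicate number as a block, 1 probeset per gene and leaving out each array. The real-time PCR was not analysed here.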

Additional observations from a re-analysis of the deposited data

How the results depend on the processing

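Between R and S, 2 members were called in the main setting, where 174 of all probesets were. The member count was 4 with an offset of 1 (228 of all probesets), 4 with an offset of 8 (334) and 4 with array weights (637). In the array weights S4 had 10.5 and the other arrays 0.331 to 1.02. The count was 1 with only those groups fitted (80 of all) and 0 without R2 and S4 (48), a pair chosen after seeing the data. It was 6 by a rebuilt match to a pattern high in R alone, after the methods of the study but not its own list. These were *mmp11.L*, *tmprss2.2.L*, *mmp14.L*, *a2m.S*, *serpinf1.L* and *adam10.S*, 9.23% of members against 9.96% of all probesets. The match correlated the 6 L and S arrays and the mean of R with the pattern. Its p-values used 8 degrees of freedom, more than so few values allow, so both shares are upper limits. *serpinf1.L* and *adam10.S* had the highest p (0.036 and 0.037, correlation), and their R arrays overlapped with S. In the main test, leaving out each array gave 0 to 3 member calls, with 0 without S4 (60 of all) and 1 without S1 (79). For lens, 41 of 65 members were called against S and 41 against R in the main setting. A filter on low values left 30 members, of which 23 were called against S and 23 against R. The lower count goes with fewer members and is not a lower share. Under that filter 5280 and 5199 of all probesets were called. How many probesets it kept is not given here, so the 23 have no matching share. In every other setting the member calls numbered 31 to 49 against S and 31 to 42 against R. The label numbers shared by groups gave a replicate block, under which 0 members were called between R and S and 13 of all probesets; it left 31 against S and 35 against R for lens. Same-numbered arrays deviated together by 0.02, 0.13 and 0.09 in L and R, where each array correlated best with its own number. In R and S the values were 0.06 and -0.10. The main fit did not take the numbers as pairs, although the L lenses are said to come from the R tadpoles. A block for L and R alone was not run. The median of members in R minus S, 0.08, was 0.0181 with an offset of 8, 0.0214 with cyclic loess, 0.0232 with median centring, 0.0264 with the filter, 0.16 with the block and 0.0529 to 0.15 without each array, with 0.15 without S3. In L minus S, 0.33 became 0.0471 with an offset of 8, 0.14 with cyclic loess, -1.18 with the filter, -0.16 with 1 probeset per gene and 0.0595 to 0.38 without each array, with 0.0595 without L1. In L minus R, 0.20 became 0.0289 with an offset of 8, -0.93 with the filter and -0.0021 with 1 probeset per gene. Filter and gene choice change which probesets enter; the cause of the other shifts was not tested. Quantile normalisation and cyclic loess turned *adam10.S* to 0.60 and 0.66 in L minus S, 2 *adam10.S* probesets to 0.28 and 0.36 and to 0.27 and 0.34 in L minus R, and *cst3.L* to 0.19 and 0.47 in L minus S. Quantile normalisation moved the median of all probesets from 0.02 to 0.14 in L minus S and from -0.07 to 0.11 in L minus R. Among 246 values of named members in R minus S under alternatives, 227 stayed on the same side of the threshold, most of them uncalled in both settings. A call was lost in 8 values, all of the 2 called members, and gained in 11. *mmp11.L* passed in 17 of 20 alternatives and *a2m.S* in 16 of 21.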

Other observations

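A probeset annotated as MGC68994, a gene for which RefSeq lists mmp7 as a synonym, lies outside the symbols above. It read 60.0, 105 and 127 in R, 38.5, 21.8 and 27.6 in S, and 0.866, 0.839 and 1.87 in L. All R arrays were above all S arrays, and the difference of 1.70 on the log2 scale (SE 0.39, 95% interval 0.83 to 2.58) missed the threshold at an adjusted p of 0.0862 (limma). It was singled out after its values were seen.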
